A study of Mus musculus with 10 samples.

Results

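The open regions described here lie far from any gene start: their edges were more than 100 kb from the nearest transcript start of a protein-coding gene. Summits of accessible chromatin from 10 ATAC-seq libraries were widened by 250 bp on each side and merged, which gave 28976 regions on chromosomes 1 to 19 and X. A region was kept when at least 3 of the 10 lists held a summit in it, and 732 of the 17231 regions kept (4.25%) passed the distance limit. They are called remote regions below. A further 1403 regions over 100 kb from a start were in only 1 or 2 lists and were not counted as members. The closest comparison is with the 5338 other distal regions, which lie 10 to 100 kb from a start, and the 8614 promoter regions within 1 kb of a start serve as a second reference.

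ATAC-seq maps open chromatin with the Tn5 transposase, which inserts sequencing adaptors where DNA is accessible. The cells were G1E-ER4, a mouse erythroid precursor line that lacks its own Gata1 and carries GATA1 fused to the ligand-binding domain of the estrogen receptor, so that β-estradiol activates GATA1 and starts erythroid maturation. The untreated cells (0 h) carry the same fusion and grew in the same medium with stem cell factor and erythropoietin, and the treated cells received 1e-07 M β-estradiol for 2, 6, 12 or 24 h. Each time point had 2 libraries of about 50000 cells, all from this single cell line. The study describes its ATAC-seq as 2 independent experiments, and the labels do not say whether the libraries came from separate cultures. The p-values measure only the spread between these libraries, which may be partly technical. The lists held 10703 to 19864 summits (24 h replicate 2 the fewest, 6 h replicate 2 the most), and sequencing depth is unknown.

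Regulatory DNA far from genes commonly acts as enhancers, which contact promoters by looping of the chromatin fibre over long distances. In erythroid precursors GATA2 occupies many such enhancers, and when GATA1 becomes active it takes over its sites, often together with TAL1 and LMO2. It then silences growth genes such as Myc and Kit and activates genes of red cell function. GATA factors read the letters AGATAA or TGATAA, and TAL1 is often found beside them at a CTG a short spacer upstream. CTCF binds a longer motif and marks boundaries of chromatin domains.

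The sequences of 5 remote regions are shown with their GATA matches marked. They are regions listed at 0 h and absent at 24 h, a region that appeared after induction, and a region beside Kit. Each window spans 200 bp around the middle of the region, on the plus strand of mm10 as read from the RefSeq GRCm38.p6 assembly, and capitals mark AGATAA or TGATAA on either strand (TTATCT and TTATCA are the same letters read on the other strand). The Vwc2l to Bard1 window is chr1:70902387-70902586, the Rsl24d1 to Unc13c window is chr9:73380872-73381071 and the Rad51b window is chr12:79769808-79770007, and these 3 regions were lost by 24 h. The Tnrc6b window is chr15:80812882-80813081, gained by 24 h. The Kit window is chr5:75460550-75460749 and was chosen after its values were seen.
Vwc2l to Bard1 region: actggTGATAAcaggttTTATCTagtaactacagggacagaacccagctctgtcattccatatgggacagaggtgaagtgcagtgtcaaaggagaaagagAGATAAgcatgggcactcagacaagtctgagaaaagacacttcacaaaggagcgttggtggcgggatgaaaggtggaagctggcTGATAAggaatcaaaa
Rsl24d1 to Unc13c region: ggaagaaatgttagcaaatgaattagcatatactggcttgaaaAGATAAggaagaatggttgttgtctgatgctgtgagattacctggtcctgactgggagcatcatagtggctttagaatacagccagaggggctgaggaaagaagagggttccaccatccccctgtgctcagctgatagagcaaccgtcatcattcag
Rad51b intron region: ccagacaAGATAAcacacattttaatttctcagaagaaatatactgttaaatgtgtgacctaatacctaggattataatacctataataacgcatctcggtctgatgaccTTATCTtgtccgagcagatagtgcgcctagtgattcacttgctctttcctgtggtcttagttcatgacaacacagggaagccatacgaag
Tnrc6b intron region: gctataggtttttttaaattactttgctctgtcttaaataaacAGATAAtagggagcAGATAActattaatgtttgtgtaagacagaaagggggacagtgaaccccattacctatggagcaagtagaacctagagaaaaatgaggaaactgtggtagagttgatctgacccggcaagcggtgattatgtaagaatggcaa
Kit upstream region: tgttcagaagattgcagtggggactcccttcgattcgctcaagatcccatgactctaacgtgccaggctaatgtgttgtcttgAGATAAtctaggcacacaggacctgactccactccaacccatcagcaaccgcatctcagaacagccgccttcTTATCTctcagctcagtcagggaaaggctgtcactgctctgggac

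The 3 lost windows hold 4, 1 and 2 GATA matches, and each of them also holds the composite in which CTG precedes the GATA letters by a spacer of 7 or 8 bases. Of all 154 regions lost at 24 h, 27.3% held the composite, so these 3 windows do not represent the lost regions. A different region upstream of Kit, also lost but not shown, held no GATA match. In the Vwc2l to Bard1 window the composite reads CTGTAGTTACTAGATAA on the minus strand, and in the Rsl24d1 to Unc13c window it reads CTGGCTTGAAAAGATAA on the plus strand. The gained window holds 2 GATA matches and no composite. The Kit window holds 2 matches, of which the second belongs to a composite, CTGAGCTGAGAGATAA, on the minus strand. A GATA match was present in the 200-bp window of 58.5% of remote regions, 43.9% of other distal regions and 24.9% of all 17231 regions. The composite, which contains a GATA match by construction, was present in 17.5%, 9.80% and 5.72%.

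By annotation (GENCODE M21), these regions are remote from coding starts rather than from genes. The middle of 256 of the 732 (35.0%) lay inside the span of a protein-coding gene and 476 (65.0%) lay outside, and 24 overlapped an exon of one. Non-coding genes overlapped 109 regions, 66 were within 1 kb of a transcript start of any gene type, and 91 were over 100 kb from every annotated start. In these overlapping classes 377 regions lay outside every annotated gene of any type. The distance to the nearest coding start had a median of 168 kb, with quartiles of 124 and 254 kb, and reached 2293 kb. Sequence over 100 kb from a coding start makes up 1103 Mb, 41.9% of these chromosomes, and held 0.663 kept regions per Mb, against 10.8 per Mb in the rest. This density was lowest on chromosome X (0.240 per Mb) and chromosome 14 (0.278 per Mb) and highest on chromosome 13 (1.14 per Mb). The regions nearest to the limit were 100.075, 100.109 and 100.199 kb from the starts of Hey1, Ogfrl1 and Cubn on the inside, and 99.826, 99.801 and 99.797 kb from those of Adamtsl1, Aatf and Mad2l1 on the outside.

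Fewer remote regions were listed late in differentiation than early. At 0 h the lists held 526 and 453 of the 732 remote regions (71.9% and 61.9%), and at 2 h they held 505 and 501 (69.0% and 68.4%). The 6 h libraries were far apart, with 383 (52.3%) in replicate 1 and 621 (84.8%) in replicate 2. At 12 h the lists held 432 and 418 (59.0% and 57.1%), and at 24 h they held 365 and 235 (49.9% and 32.1%). Both 24 h libraries were below every library of the other time points. A region missing from a list had a score under the caller's threshold there, and in bulk libraries fewer cells with an open region and weaker opening in all cells cannot be told apart. The 12 h and 24 h libraries averaged 49.5% of remote regions and the 0 h and 2 h libraries averaged 67.8%, a difference of -18.3 percentage points without overlap (exact permutation p = 0.0286, the smallest possible with 4 libraries against 4, adjusted p = 0.114 over 8 comparisons). The contrast was between -20.2 and -12.5 points, with exact permutation p from 0.0571 to 0.0857, when any one of the 0 h or 2 h libraries or 24 h replicate 2 was left out. The same contrast was -6.85 points for other distal regions (exact permutation p = 0.429) and -0.293 points for promoter regions (exact permutation p = 0.857). The difference between the contrasts of remote and other distal regions was -11.4 points (exact permutation p = 0.0571). By replicate number, the only batch in the labels, the libraries listed a mean of 442 remote regions in replicate 1 and 446 in replicate 2 (exact permutation p = 0.976).

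The number listed also depends on the length of a list, so the remote regions were counted per 100 listed regions. This share was 3.99 and 4.19 at 0 h, 3.72 and 3.96 after 2 h, 3.12 and 3.99 after 6 h, 3.34 and 3.38 after 12 h, and 2.88 and 2.37 after 24 h. It fell with hours of β-estradiol over the 10 libraries (Spearman's rho = -0.886, permutation p = 0.00166, and Pearson's r = -0.896, permutation p = 0.00052, both with adjusted p = 0.00664 over 24 coefficients). The rho was -0.9 within each replicate number (exact permutation p = 0.0833 in each). Without the 2 libraries of 24 h rho was -0.781 (exact permutation p = 0.0349) and r was -0.738 (exact permutation p = 0.0456). The number of summits per list did not follow hours (rho = -0.0492, permutation p = 0.918). Sequencing depth is unknown, and its part in the fall of the share was not tested.

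The remote regions were also set against the other distal regions of the same list. The percentage of remote regions listed minus that of other distal regions was 7.28 and 16.4 points at 0 h, and -10.4 and -2.16 points after 24 h, with the libraries in between ranging from -5.73 to 7.95 points. It fell with hours (rho = -0.739, permutation p = 0.0212, adjusted p = 0.0344, and r = -0.691, permutation p = 0.0272, adjusted p = 0.0384), with a rho of -0.9 within each replicate number (exact permutation p = 0.0833 in each). It was higher in replicate 2 than in replicate 1 at all 5 time points. Without the 24 h libraries it no longer passed the test (rho = -0.634, exact permutation p = 0.110, and r = -0.632, exact permutation p = 0.0980), and this relation rests on them. It also missed the threshold without 0 h replicate 1 (rho = -0.678, permutation p = 0.0522), 0 h replicate 2 (rho = -0.653, permutation p = 0.0627) or 24 h replicate 1 (rho = -0.661, permutation p = 0.0589).

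**Figure D1:**
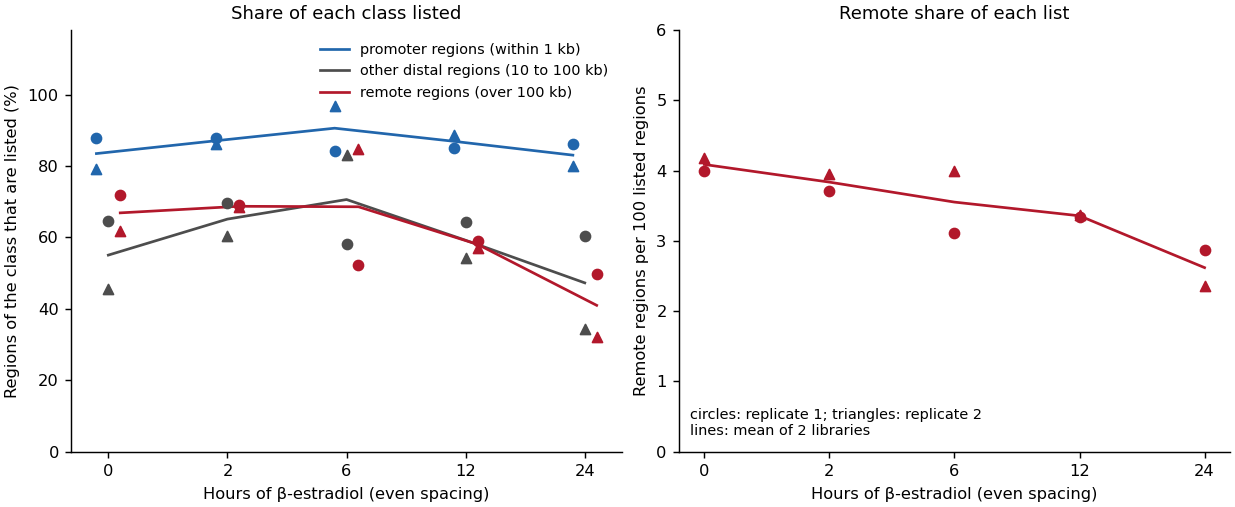
Left, percentage of promoter, other distal and remote regions that each library lists, against hours of β-estradiol; right, remote regions per 100 listed regions. Circles are replicate 1, triangles replicate 2 and lines the mean of the 2 libraries. Promoter regions stay between 79.2% and 96.9%, while remote regions reach their lowest values, 49.9% and 32.1%, at 24 h.

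At 24 h far more remote regions had left the lists than had entered them. A region was called lost when both libraries of 0 h listed it and neither library of a later time point did, and gained in the opposite case, so that these are changes of listing and not of a measured signal. At 24 h 154 remote regions were lost (21%), where 5.55% of all 17231 regions were lost, and 18 were gained (2.46%, against 2.69% of all regions). Other distal regions were lost in 9.40% and gained in 3.82%. At 12 h 62 remote regions were lost (8.47%, against 2.81% of all regions) and 17 were gained (2.32%, against 3.96%). Losses at 6 h numbered 31 (4.23%, against 0.923%) and gains 49 (6.69%, against 5.99%). At 2 h 31 were lost (4.23%, against 1.58%) and 34 were gained (4.64%, against 4.04%). In lists cut to equal length losses outnumbered gains at 2 h (16 against 6) and at 6 h (37 against 16), the reverse of the counts from the full lists. The share of all regions called in those cut lists was not computed at these times. In the full lists the gains were near the share of all regions at 2, 6 and 24 h and below it at 12 h. The losses were above it at every time point. Other distal regions were gained in 6.39%, 9.10% and 5.96% at 2, 6 and 12 h and lost in 2.10%, 1.59% and 4.57%. Compared with other distal regions, a lower share of remote regions was gained and a higher share lost at every time point. All 4 comparisons share the 0 h libraries, and each count rests on 4 libraries: asking 1 library in place of both raised the losses at 24 h to at most 223 (without 24 h replicate 1) and the gains to at most 69 (without 24 h replicate 2), and the losses at 6 h to 139 without 6 h replicate 2. The share of all regions called with 1 library was not computed. Of the 382 remote regions in both 0 h libraries, 40.3% were lost by 24 h, compared with 25.6% of 1959 other distal regions and 1.92% of 6410 promoter regions.

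The 154 regions lost at 24 h dropped out at different times. Both libraries still listed 83 of them at 2 h, 46 after 6 h and 45 after 12 h, and neither library listed 25, 26 and 51 at these times. Of the 18 gained regions, 4 were in both libraries at 2 h, 9 after 6 h and 3 after 12 h. A kept region was in at least 3 lists, so each lost or gained region was also in a list of 2, 6 or 12 h. Regions in the 0 h lists alone or in the 24 h lists alone were not kept, and these courses are partly set by that rule. Replicates shared fewer remote regions at each later time: the regions in both libraries made up 64.0% of those in either at 0 h, 60.7% after 2 h, 53.3% after 6 h, 49.4% after 12 h and 42.9% after 24 h.

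Losses were more frequent the farther a region lay from a coding start. Within 1 kb 1.43% of regions were lost at 24 h, and the percentage was 6.95 at 1 to 10 kb, 8.53 at 10 to 50 kb and 12.7 at 50 to 100 kb. Among remote regions it was 17.8% of 439 at 100 to 200 kb, 20.1% of 224 at 200 to 500 kb and 44.9% of 69 beyond 500 kb, and none of those 69 was gained. GATA matches followed the same order, from 5.77% within 1 kb through 56.7% at 100 to 200 kb and 57.1% at 200 to 500 kb to 73.9% beyond 500 kb. Over the libraries, remote regions beyond 200 kb were listed in 75.8% and 64.5% at 0 h and in 46.1% and 28.7% after 24 h, and those at 100 to 200 kb in 69.2% and 60.1% and then in 52.4% and 34.4%. The difference between these 2 classes fell with hours (rho = -0.714, permutation p = 0.0267, and r = -0.670, permutation p = 0.0343, adjusted p = 0.0384 and 0.0458). Within replicate numbers rho was -0.6 and -0.8 (exact permutation p = 0.35 and 0.133). Without the 24 h libraries rho was -0.732 (exact permutation p = 0.0548) and r was -0.719 (exact permutation p = 0.0480).

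**Figure D2:**
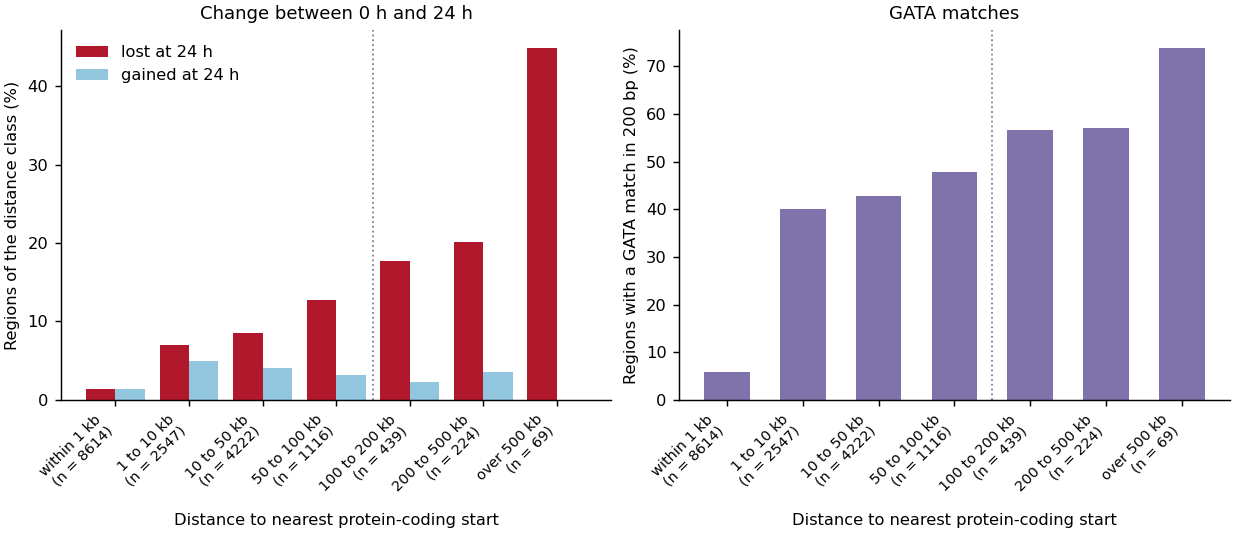
Regions in at least 3 lists by distance to the nearest protein-coding start, with the number in each class under its name; the dotted line marks 100 kb. Bars on the left give the percentage lost and gained between 0 h and 24 h, and bars on the right the percentage with a GATA match. The lost percentage goes from 1.43% in the nearest to 44.9% in the farthest class and that of GATA matches from 5.77% to 73.9%.

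Remote regions held more GATA matches than other distal regions in every library. Among the remote regions each library listed, 57.9% ± 4.2 (SD, n = 10) held a GATA match, against 45.7% ± 3.2 for other distal regions, and the difference of 12.2 points had the same sign in 10 of 10 libraries (exact sign-flip permutation p = 0.00195, the smallest possible, adjusted p = 0.00391 over 12 features). The TAL1-GATA composite was in 18.5% against 11.1%, higher in 10 of 10. Matches for the CTCF core motif were fewer (3.55% against 6.14%, lower in 10 of 10), as were those for KLF factors, which include KLF1, at CCNCNCCC (19.8% against 28.1%, lower in 10 of 10). The MYB letters AACNGTT were in 5.17% against 4.27%, higher in 10 of 10. All of these have the same exact and adjusted p. Smaller differences were found for AP-1 at TGANTCA (10.5% against 9.18%) and for the E-box at CAGNTG (50.1% against 48.4%), each higher in 9 of 10 libraries (exact permutation p = 0.00391, adjusted p = 0.00586). ETS (CAGGAA or CCGGAA) and RUNX (TGTGGT) matches did not pass the test (exact permutation p = 0.0762 and 0.113). The lists share most of their regions, so the 10 libraries are not independent draws of sequence. Motif letters were searched on both strands and a match is not evidence of binding.

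Base composition differed as well, with 48.0% GC in listed remote regions and 50.7% in other distal regions. The GATA difference was present at each GC level: below 40% GC the match was in 67.9% of remote and 61.0% of other distal regions, at 40 to 45% in 69.4% and 61.8%, at 45 to 50% in 61.0% and 51.3%, at 50 to 55% in 52.3% and 39.2%, and from 55% in 28.3% and 23.5%. The loss at 24 h was likewise higher in remote regions at each level, from 37.6% against 22.6% below 40% GC to 5.43% against 3.88% from 55%. From 55% that loss rests on 5 of 92 remote regions. The differences within GC levels and the part of base composition in them were not tested. Remote regions ranked slightly higher in score than other distal regions, with a mean of the median within-list percentiles of 43.9 against 40.9, higher in 8 of 10 libraries (exact permutation p = 0.0273, adjusted p = 0.0328). This difference did not pass the test among regions outside coding genes (0.563 points, exact permutation p = 0.674), and exact permutation p was 0.0508 to 0.0547, at 2.36 to 2.92 points, when either 0 h library, 2 h replicate 1 or either 6 h library was left out. They also did not differ much in constancy, since 110 (15.0%) were in all 10 lists, against 13.8% of other distal regions.

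The remote regions that left the lists were mostly those with GATA letters. Of the 154 lost at 24 h, 75.3% held a GATA match and 27.3% the composite, against 38.9% and none of the 18 gained. Of the 428 remote regions with a match 116 were lost (27.1%), and of the 304 without one 38 were lost (12.5%). In other distal regions the corresponding shares were 15.0% and 5.04%. Only regions in both 0 h libraries could be called lost, and 244 of those 382 remote regions held a GATA match. Of the 244 with a match 47.5% were lost at 24 h, and of the 138 without one 27.5% were lost. Of the 89 with the composite, which are among the 244, 47.2% were lost, a share close to that of all regions with a match. In the remote regions of all 10 lists, 54.5% held a GATA match and 20.9% the composite. Within the list of each library, the GATA share of remote regions was 61.8% and 64.0% at 0 h, 59.2% and 59.5% after 2 h, 55.6% and 59.9% after 6 h, 58.1% and 58.1% after 12 h, and 49.6% and 53.2% after 24 h. It fell with hours (rho = -0.886, permutation p = 0.00159, r = -0.886, permutation p = 0.00065, adjusted p = 0.00664). The value of rho was -0.9 within each replicate number (exact permutation p = 0.0833 in each). It was -0.781 without the 24 h libraries (exact permutation p = 0.0349), where r was -0.645 (exact permutation p = 0.0798). The GATA share of other distal regions fell too (rho = -0.763, permutation p = 0.0150, and r = -0.717, permutation p = 0.0151, both with adjusted p = 0.0302), a relation that rests on the 24 h libraries (rho = -0.586 without them, exact permutation p = 0.153).

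The comparison of remote with other distal regions was also made apart for regions with and without GATA letters. Among regions with a match, the listed percentage of remote regions minus that of other distal regions went from 7.70 and 13.4 points at 0 h to -12.5 and -5.34 points after 24 h and fell with hours (rho = -0.812, permutation p = 0.0072, adjusted p = 0.0247, and r = -0.716, permutation p = 0.0198, adjusted p = 0.0344). Without the 24 h libraries it did not pass the test (rho = -0.732, exact permutation p = 0.0548, and r = -0.636, exact permutation p = 0.0893). Among regions without a match the corresponding rho was -0.542 (permutation p = 0.117, adjusted p = 0.148) and r was -0.514 (permutation p = 0.124), with rho of -0.9 and -0.7 within replicate numbers (exact permutation p = 0.0833 and 0.233). With hours permuted only within a replicate number, the relation without a match did pass (exact permutation p = 0.0178 for rho and 0.0359 for r). Whether the relations with and without a match differ was not tested. CTCF matches went the other way. They were in 2.47% and 2.87% of listed remote regions at 0 h and in 4.93% and 3.83% after 24 h, and their share rose with hours (rho = 0.788, permutation p = 0.0103, adjusted p = 0.0279, and r = 0.743, permutation p = 0.0131, adjusted p = 0.0302). The value of rho was 1 and 0.7 within replicate numbers (exact permutation p = 0.0167 and 0.233) and 0.830 without the 24 h libraries (exact permutation p = 0.0198). This rise was not past the test in lists cut to equal length (rho = 0.566, permutation p = 0.0994) or beyond 200 kb (rho = 0.369, permutation p = 0.306), and only 32 remote regions held a CTCF match, of which 6 were in both 0 h libraries and 1 was lost at 24 h. The CTCF share of listed other distal regions was also higher at 24 h (7.68% and 5.74%) than at 0 h (4.99% and 3.91%). After 2 h it was 6.44% and 6.35%, and its relation with hours was not tested.

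**Figure D3:**
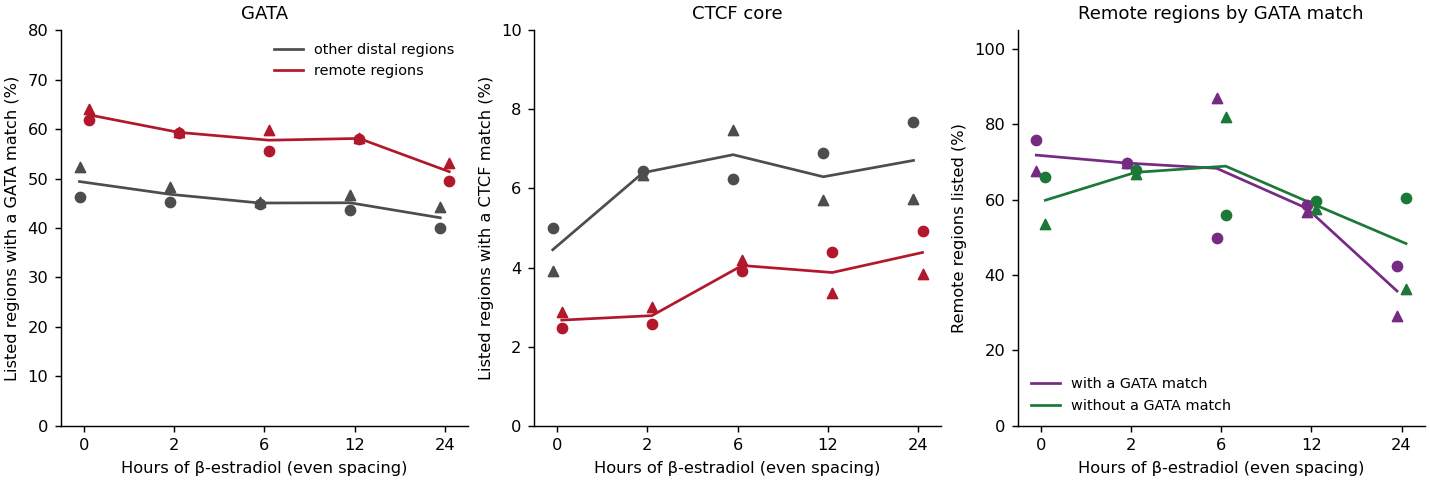
Percentage of listed regions with a GATA match (left) or a CTCF match (centre) for remote and other distal regions, and percentage of remote regions with and without a GATA match that are listed (right), against hours of β-estradiol. Circles are replicate 1, triangles replicate 2 and lines the mean of the 2 libraries. Remote regions lie above other distal regions for GATA and below them for CTCF in each library, and those with a GATA match go from 75.9% and 67.8% listed at 0 h to 42.3% and 29.2% after 24 h.

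The 6 named lost regions were chosen by the highest mean percentile over the 2 libraries of 0 h, so their high ranks there follow from that choice. Scores were expressed as percentiles within each list, where 100 is the highest score. The region between Vwc2l and Bard1, whose product pairs with BRCA1, was 176 kb from the nearest start and stood at percentiles 85.6 and 95.1 at 0 h, 59.6 and 90.6 after 2 h, 75.7 and 90.6 after 6 h, and 73.8 in 12 h replicate 2. It was missing from 12 h replicate 1 and from both 24 h lists. The region between Rsl24d1 and Unc13c, 266 kb from a start, stood at 89.3 and 90.6 at 0 h, 64.9 and 73.2 after 2 h, 63.8 and 91.6 after 6 h, 48.6 and 76.7 after 12 h, and was absent at 24 h. In an intron of Rad51b, a recombination gene, a region 343 kb from the start of Zfp36l1 stood at 93.5 and 85.0 at 0 h, 62.5 and 87.0 after 2 h, 67.0 and 77.6 after 6 h, and 10.0 and 40.2 after 12 h before it too dropped out. These 3 regions were in every library up to 6 h.

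A region overlapping an exon of Angpt1, which encodes a ligand of the TIE2 receptor, stood at 91.0 and 84.9 at 0 h, 48.2 and 54.3 after 2 h, 18 and 89.5 after 6 h and 67.2 in 12 h replicate 2, with 5 GATA matches over its whole length. A region 289 kb upstream of Kit had none over its whole length. It stood at 85.3 and 93.5 at 0 h, 3.80 and 90.8 after 2 h, 37.0 and 73.3 after 6 h and 72.4 in 12 h replicate 2. The region ranked first among those lost, between Pabpc2 and Yipf5 on chromosome 18, was at 90.2 and 93.5 at 0 h, was listed at every time up to 12 h, and held the composite. Of the 6 named, 5 held a composite in the window.

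The 6 named gained regions were chosen by the highest mean percentile over the 2 libraries of 24 h, and their onset differed. Ranks of all lost and all gained regions were not compared. The region in Dis3l2, which encodes an exoribonuclease, was in none of the 0 h lists and in all 8 later ones, at percentiles 84.0 and 70.3 after 2 h, 20.3 and 84.6 after 6 h, 53.1 and 70.2 after 12 h, and 49.9 and 51.2 after 24 h. It lay 173 kb from the start of Alppl2 and 985 bp from a transcript start when every gene type and transcript is counted. A region 223 kb upstream of Klf3, which encodes a repressor of the Krüppel-like family, was in 5 lists between 2 h and 12 h and at percentiles 64.6 and 28.3 after 24 h. The region in Tnrc6b, a gene of microRNA silencing, was absent at 0 h and 2 h and stood at 10.9 and 23.9 after 6 h, 11.9 in 12 h replicate 1, and 49.0 and 33.1 after 24 h. Regions in Ppp3ca, the catalytic subunit of calcineurin, in Ap3b1, and between Ercc6l2 and Hsd17b3 were at percentiles between 24.2 and 57.1 after 24 h and in 2 or 3 of the 6 lists from 2 h to 12 h. Of the 6 named gained regions, 4 held a GATA match in the window and none held a composite.

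**Figure D4:**
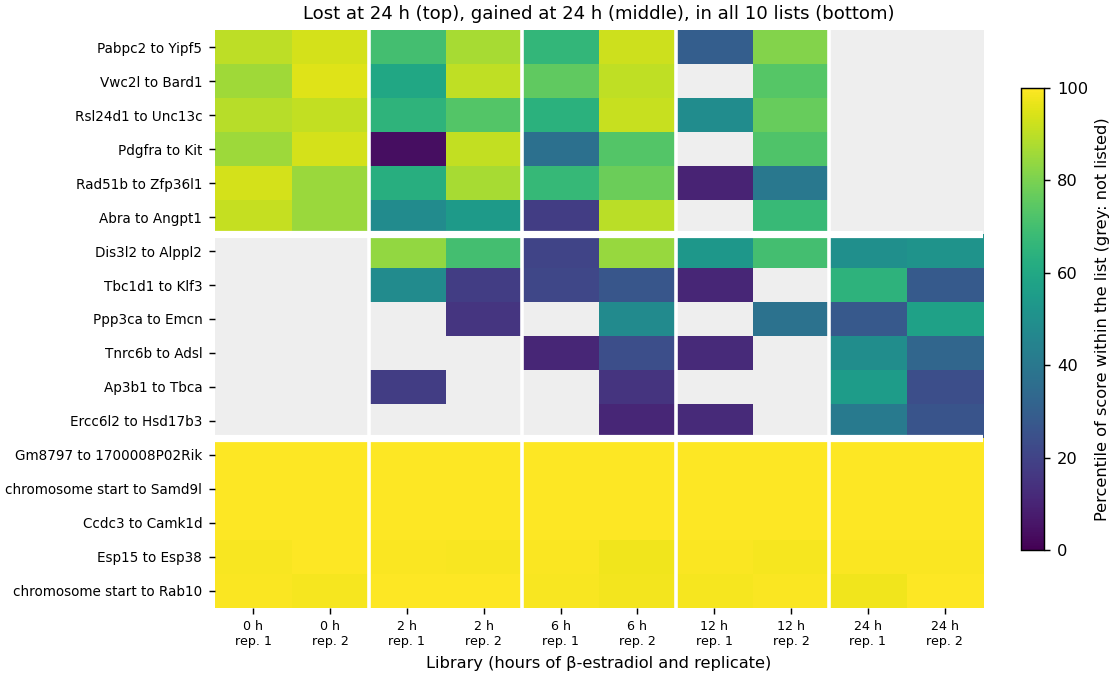
Within-list percentile of the score (colour, grey where not listed) of the 6 lost, 6 gained and 5 constant remote regions that rank highest, one row per region named by its flanking coding genes and one column per library. The lost regions are grey in both 24 h columns, the gained ones in both 0 h columns, and the 5 constant regions stay at 97.8 or above in every library.

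The highest-ranked constant regions were unlike the rest. The 5 with the highest mean percentile among the 110 in all 10 lists stood at 97.8 or above in each of the 10 libraries, and none held a GATA match in the window. They lay at chr3:5860405-5860964, chr6:3201237-3201764, chr2:5379071-5379579 in an intron of Camk1d, chr17:39845147-39846278 over the lincRNA Gm26917, and chr12:3109780-3110286. The chromosome 17 region lay within the block chr17:39843013-39848827 that also holds an rRNA gene, and the chromosome 6 window matched that block at 96% identity over 200 bp. The chromosome 12 window had near-identical copies at 21 other places, and 97.0% of its bases were repeat-masked. In all, 4 remote windows matched the rRNA block and 20 had at least 1 near-identical copy on another part of the chromosomes (at least 90% identity over at least 80% of the window), against 67 of 5338 other distal windows. Of these 24 remote regions 11 were in all 10 lists, 1 was lost at 24 h and 8 held a GATA match. Without them and the matching other distal regions, 153 of 708 remote regions (21.6%) were lost at 24 h. The labels state that only reads with a single location in mm10 were kept. Removal of regions that collect reads artificially is not stated for these lists, and its part in the constant regions was not tested.

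Remote regions were unevenly spread over the gaps between neighbouring coding starts, which can include the body of a gene. Of 2648 gaps long enough to hold one, 392 did: 238 held 1, and 26 gaps with 5 or more held 166. A neighbour within 10 kb was found for 121 regions. The fullest gap was that between Myc, the growth-promoting transcription factor, and Gsdmc, with 12 regions over 1821 kb. The lists held 10 and 6 of them at 0 h, 10 and 8 after 2 h, 5 and 8 after 6 h, 11 and 7 after 12 h, and 5 and 1 after 24 h. A total of 9 overlapped the long non-coding gene Pvt1, at 114 to 343 kb from the start of Myc, and 3 overlapped Gm41335 at 1608 to 1663 kb. GATA matches were in 9 of the 12. At 24 h, 2 of the 12 were called lost and none was gained. The region 174 kb downstream of Myc stood at percentiles 99.2 and 96.8 at 0 h, 91.1 and 92.5 after 2 h, 83.7 and 96.1 after 6 h, 89.0 and 78.0 after 12 h and 59.2 in 24 h replicate 1, and was absent from 24 h replicate 2. Its neighbour at 236 kb was in all 10 lists, at percentiles from 29.6 to 86.3.

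The gap from Rad51b to Zfp36l1 held 11 regions, 7 of them inside Rad51b, of which 9 and 7 were listed at 0 h and 8 and 4 after 24 h. Upstream of Klf3, the gap from Tbc1d1 held 10, with 6 and 4 listed at 0 h and 7 and 2 after 24 h. The gap from Stxbp6 to Nova1, a neuronal splicing gene, held 9, all with a GATA match. The lists held 9 and 8 of those at 0 h, 4 and 6 after 12 h and 3 and 2 after 24 h, and 5 were lost. Between Opa1 and Hes1, a target of Notch signalling, 9 regions were found, of which 8 and 3 were listed at 0 h and 6 and 2 after 24 h. Among these 5 gaps the Stxbp6 to Nova1 gap was the one in which both 24 h libraries listed fewer than any earlier library.

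Genes of blood cell growth, lineage and signalling flanked some of the remote regions. Of the 76 genes on that list, 23 flanked at least 1, and 73 remote regions had such a neighbour. The share of all coding genes that flank a remote region was not computed, so these counts cannot show a preference for blood cell genes. Among these 73, 11 were lost at 24 h (15.1%) and 2 were gained, 10 were in all 10 lists and 43 (58.9%) held a GATA match, so the share lost was below that of all remote regions. Around Kit, the receptor for stem cell factor, there were 4 regions on each side. The one 114 kb upstream was in all 10 lists, at percentiles 91.8 and 78.7 at 0 h, 93.2 and 86.5 after 2 h, 77.5 and 93.1 after 6 h, 32.1 and 88.9 after 12 h, and 89.7 and 76.1 after 24 h, and its values at 24 h lay inside the range of the earlier libraries. Upstream of Runx1, a regulator of blood stem cells, 7 regions lay 206 to 467 kb away. The one at 304 kb was in all 10 lists and those at 322, 327 and 371 kb were in 9, and none of the 7 was lost or gained at 24 h.

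Other genes on the list had fewer regions nearby. Between Celf2 and Gata3, 2 regions with GATA matches were both lost, and beside Lmo4, which encodes a LIM-domain cofactor, 2 of 4 were lost. The region beside Tet2, a DNA demethylase gene, was lost, and of the 2 beside Sox6, a repressor of embryonic globin, 1 was lost and 1 was in all 10 lists. The region beside Bcl2, which encodes a survival factor, was gained. Cd47, Zeb2 and Jun had 3 regions each in the neighbouring gap, and none of these 9 was lost or gained.

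**Figure D5:**
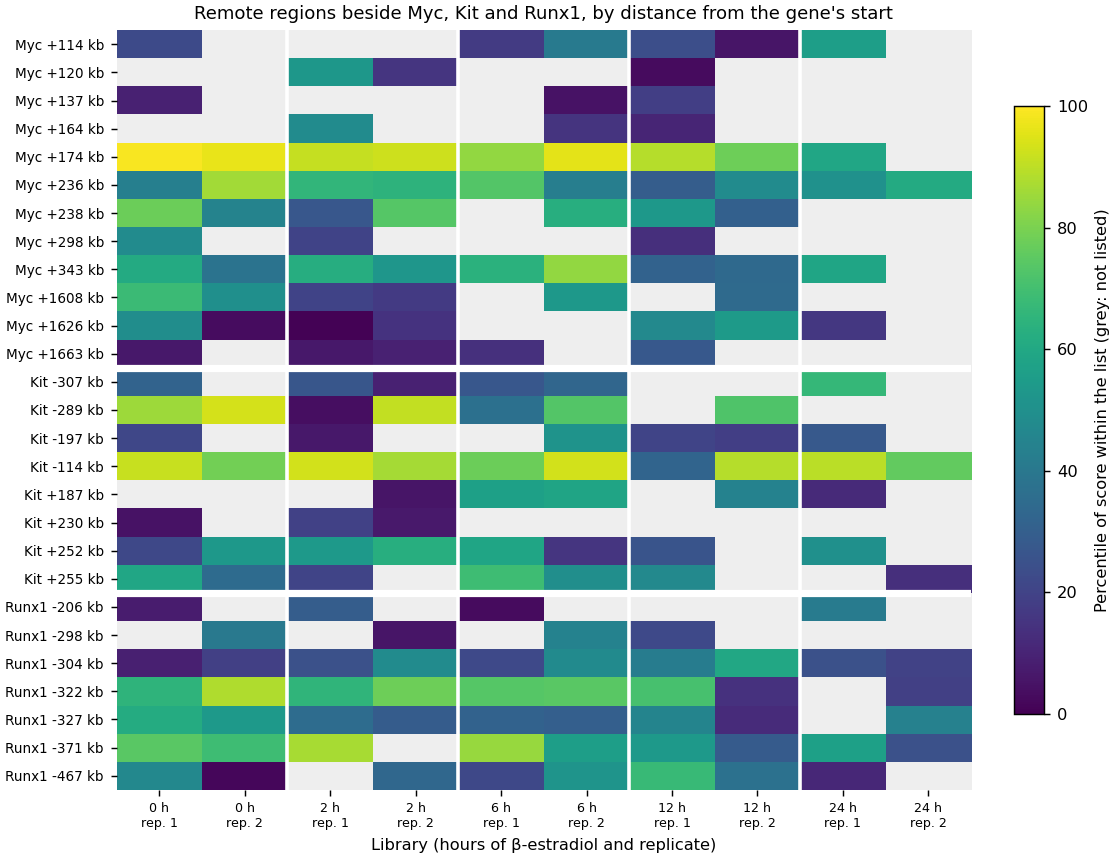
Within-list percentile (colour, grey where not listed) of the remote regions beside Myc (12 rows), Kit (8 rows) and Runx1 (7 rows), ordered by distance of the region's middle from the start of the gene, negative upstream, with one column per library. In the last column, 24 h replicate 2 and the shortest list, 1 of the 12 Myc rows is coloured. In 24 h replicate 1, 5 of the 12 are coloured. The Kit row at -114 kb is coloured throughout.

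The regions farthest from any coding start were in 3 large gaps. The farthest, 2293 kb from a start between Pcdh20 and Pcdh9, held a composite and stood at percentiles 85.0 and 84.6 at 0 h, 60.5 and 65.0 after 2 h and 48.9 in 6 h replicate 2, and was in no list after that. The second, 2140 kb away between Cntnap5b and Cdh20, was in all 10 lists at 97.4 or above and held no GATA match. The third, 1573 kb away between Cdh6 and Cdh9, which like Cdh20 encode cadherins of cell adhesion, held a composite and was in 5 lists. It stood at 69.2 and 37.2 at 0 h, 38.2 in 2 h replicate 2, 47.5 in 6 h replicate 2 and 10.2 in 12 h replicate 2, and was in neither 24 h list.

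The identity of the cells was checked at promoters. Of 12 genes that mark erythroid cells, 8 had a promoter region in at least 5 libraries, among them Klf1, Epor, Tfrc and Zfpm1 in all 10 and Kit in 9, and Tal1, Gata2 and Slc4a1 had none. No promoter of 4 T cell, 4 B cell, 3 macrophage or 2 liver genes was listed, and of 3 fibroblast genes Col1a1 had a promoter region in 8 libraries and Pdgfra in 3.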

How the data were processed

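ATAC-seq was done on 10 libraries of G1E-ER4 cells (0, 2, 6, 12 and 24 h of β-estradiol, 2 each) and grouped by their GEO labels. Each deposited table is a MACS2 summit list on mm10, which the authors made from reads with a single location. The deposited score of each summit is the −log10 q-value that the authors obtained from the peak caller (lowest 1.30), a unit taken from the layout of MACS2 summit lists and the values, since the lists have no header. It is not scaled between libraries, and sequencing depth is unknown. The submitters' processing notes name Bowtie 1.0.0 and Picard, whereas the study's methods name Bowtie2. A summit missing from a list lay under the caller's threshold, which is not closed chromatin, and depth can move it.

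Summits on chromosomes 1 to 19 and X (146915 of 146988) were widened by 250 bp, merged, and kept in at least 3 lists. Distances are from a region's edge to 41244 starts of protein-coding transcripts in the GENCODE M21 basic set. Motif letters were searched on both strands in 200 bp at the middle of each region. Scores were turned into percentiles within each list. The libraries were tested as wholes: exact permutation of labels or signs, or 100000 permutations for relations with hours over 10 libraries, all two-sided, with Benjamini-Hochberg adjustment within each family (24 coefficients, 8 comparisons, 12 features). Of the 12 relations with hours, 4 were planned and 8 were added later. The named regions are the 6 lost and 6 gained at 24 h with the highest mean percentile over both libraries that list them, the 5 in all 10 lists with the highest mean percentile, those in the 5 gaps with the most regions or beside a gene of the list of 76 blood cell genes, the 3 farthest from a start, and the 3 nearest to the limit on each side. Members and lists were chosen with earlier results of these data known. The alternatives were lists of equal length, a score of at least 2, summits widened by 100 bp, at least 5 lists, more than 200 kb, other sets of starts, a wider comparison set, another motif window, a replicate block and leaving out each library. Scripts were tested on simulated data. Python 3.11.15, numpy 2.4.6, pandas 2.3.3, scipy 1.17.1, BLAST+ 2.17.0 and minimap2 2.31 were used. Some items withheld from the text are not reported here.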

Additional observations from a re-analysis of the deposited data

How the results depend on the processing

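The fall of remote regions per 100 listed regions (rho from -0.935 to -0.812), of their listing relative to other distal regions (-0.837 to -0.739) and of their GATA share (-0.911 to -0.689), and the higher GATA share than in other distal regions (7.04 to 15.8 points), kept their direction and passed p = 0.05 under the 10 or 11 alternatives that do not leave out a library. Of the values recomputed with 1 choice changed, 232 of 318 were called the same. In lists cut to equal length 440 regions qualified, with 16 lost and 6 gained at 2 h, 37 lost and 16 gained after 6 h, 11 gained at 12 h, and 102 lost (23.2%, against 5.12% of all regions) and 11 gained at 24 h, and the CTCF rise was at rho = 0.566. In at least 5 lists were 466 regions, with 9 lost and 13 gained at 2 h, 5 and 25 after 6 h, 27 and 11 after 12 h, a percentile difference of 2.48 points that missed the threshold and a replicate difference of -1.4 regions. Beyond 200 kb were 293 regions, with 10 lost and 15 gained at 2 h, 15 and 17 after 6 h, 35 and 4 after 12 h, 76 and 8 after 24 h, and a CTCF rho of 0.369. With starts of every gene type 91 regions qualified, with 7 lost and 3 gained at 2 h, 5 and 3 after 6 h, 10 and 0 after 12 h, 28 (30.8%) and 1 after 24 h, and a composite difference of 3.83 points (exact permutation p = 0.0527). For these counts, which also differ in how many regions qualify, the cause was not tested. For lists of equal length and for at least 5 lists, the share of all regions called at 2, 6 and 12 h was not computed. With other distal regions taken from 1 kb the percentile difference was 2.30 points and missed the threshold.

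Same-numbered libraries were not taken as pairs, since their deviations from the time point's mean correlated at 0.00133 to 0.143 and passed 0.1 in 4 of 10 pairs of time points, although remote regions minus other distal regions was higher in replicate 2 at all 5 time points. A block on replicate number, with hours permuted only within a number, gave exact permutation p = 0.0556 for the late minus early difference of -18.3 points and p = 0.0178 (rho) and 0.0359 (r) for the relation with hours among regions without a GATA match, and changed none of the 4 planned relations. Alternatives chosen after seeing the data were comprehensive transcripts (665 regions), regions outside coding gene spans, and leaving out regions with a copy or an rRNA match. Outside gene spans were 476 regions, with 17 lost and 17 gained at 2 h, 18 and 29 after 6 h, 9 gained at 24 h, a CTCF rho of 0.640 and a percentile difference of 0.563 points, which was 2.24 points without copies, and all 3 missed the threshold, for a cause that was not tested.

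Leaving out 1 library in turn gave a rho from -0.932 to -0.848 for remote regions per 100 listed and for their GATA share, from -0.814 to -0.653 for listing relative to other distal regions, and from 0.720 to 0.881 for the CTCF share. It gave a late minus early difference from -21.4 to -12.5 points, a percentile difference from 2.36 to 3.60 points (exact permutation p from 0.0117 to 0.0547) and a replicate difference from -40.5 to 56.0 regions. Gains ranged from 56 to 83 at 2 h, 56 to 111 after 6 h, 33 to 71 after 12 h and 25 to 69 after 24 h, and losses from 46 to 73, 38 to 139, 89 to 129 and 175 to 223. These counts are higher because a single library then has to list or lack the region. The share of all regions called this way was not computed. Depth is unknown, so a region near the caller's threshold can leave a list through depth alone, and the 2 libraries of 6 h, with 383 and 621 remote regions, and of 24 h, with 365 and 235, limit what those times can show.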
